A study of Homo sapiens with 24 samples.

Results

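Fibroblast growth factor (FGF) signalling was followed in KDM2A knockdown through 10 genes, the 6 ligand genes FGF2, FGF4, FGF8, FGF17, FGF18 and FGF19 and the 4 receptor genes FGFR1, FGFR2, FGFR3 and FGFR4. The 10 genes were chosen by name, with earlier results of these data known. They were looked up in a count table of neural progenitor cells (NPCs) and in one of cerebral organoids. All 10 were found among the 61544 identifiers of the organoid table, and 8 among the 10221 symbols of the NPC table. FGF17 and FGF18 were not analysed here in the NPCs.

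Both systems were grown from H9 embryonic stem cells, a widely used human line: NPCs, and organoids at day 30, which are free-floating cultures that resemble early brain tissue. In each system 1 group carried the short hairpin RNA sh1 against KDM2A, another carried the hairpin sh4 against the same gene, and the control group NC carried a scrambled hairpin. Each NPC group has 5 libraries and each organoid group 3, which makes 24 libraries of poly(A)-selected RNA. Every group, NC included, had been infected with lentivirus at the stem cell stage and selected with puromycin at 1 µg/ml. Genotype labels read KDM2A knockdown for sh1 and sh4 and WT for NC, and the treatment labels of the knockdown groups speak of siRNA while the titles speak of sh. KDM2A is a histone demethylase that removes dimethylation from lysine 36 of histone H3, and the series title sets it beside MAPK signalling. Nothing in the labels tells whether libraries of 1 group are separate cultures, so the p-values rest on a spread between libraries that may be technical.

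FGF ligands bind FGF receptors, which are receptor tyrosine kinases, together with heparan sulfate or, for the endocrine ligands, with a Klotho co-receptor. Activated receptors signal through RAS and the MAP kinases ERK, and cells answer with ETS factors such as ETV4 and ETV5 and with feedback inhibitors such as DUSP6 and the Sprouty proteins. In the embryo, FGF2 and FGF4 accompany pluripotent cells, FGF2 drives the division of neural progenitors, and FGF8, FGF17 and FGF18, which form 1 subfamily, pattern the front of the forebrain and the border of midbrain and hindbrain. FGF19 is an endocrine ligand, best known for lowering bile acid synthesis through FGFR4 and the co-receptor beta-Klotho, and it is also made in the embryonic brain. FGFR1, FGFR2 and FGFR3 are the main receptors of neural progenitors.

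Promoters are shown for 4 genes whose levels are described below, because KDM2A carries a CXXC zinc finger, a domain known to bind unmethylated CG pairs. FGF2 fell and FGF18 rose in organoids with either label, FGFR2 was higher there below the fold threshold, and FGFR4 rose in NPCs. The sequences are from RefSeq (GRCh38.p14), each the stretch before the first listed start and outside the gene as GENCODE v29 draws it, written 5′ to 3′ on the gene's strand. Capitals mark CG pairs. FGF2 is given for chr4:122826581-122826707, plus strand. FGF18 is given for chr5:171419397-171419646, plus strand. FGFR2 is given for chr10:121598459-121598694, minus strand. FGFR4 is given for chr5:177086665-177086885, plus strand.
FGF2: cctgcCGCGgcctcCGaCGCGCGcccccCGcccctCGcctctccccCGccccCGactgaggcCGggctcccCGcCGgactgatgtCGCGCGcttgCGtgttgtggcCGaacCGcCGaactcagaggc
FGF18: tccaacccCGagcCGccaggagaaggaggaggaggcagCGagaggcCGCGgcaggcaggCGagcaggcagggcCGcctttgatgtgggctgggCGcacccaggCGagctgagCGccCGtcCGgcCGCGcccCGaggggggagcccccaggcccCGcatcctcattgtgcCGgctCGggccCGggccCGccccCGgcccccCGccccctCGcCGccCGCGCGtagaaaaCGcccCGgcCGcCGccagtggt
FGFR2: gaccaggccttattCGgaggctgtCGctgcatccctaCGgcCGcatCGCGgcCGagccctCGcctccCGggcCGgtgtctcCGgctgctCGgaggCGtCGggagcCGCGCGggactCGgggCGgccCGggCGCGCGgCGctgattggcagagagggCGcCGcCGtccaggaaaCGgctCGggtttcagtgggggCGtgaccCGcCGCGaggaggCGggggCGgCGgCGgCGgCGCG
FGFR4: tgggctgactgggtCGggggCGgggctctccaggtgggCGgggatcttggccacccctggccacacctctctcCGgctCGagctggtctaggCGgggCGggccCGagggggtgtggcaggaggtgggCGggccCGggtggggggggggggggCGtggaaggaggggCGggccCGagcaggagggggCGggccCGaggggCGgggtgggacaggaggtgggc
The motif searched was CG, which reads the same on both strands and has no overlap with itself. The FGF2 stretch of 127 bases holds 20 CG pairs, a number reached by 3.1% of the 35116 promoters in the table over the same bases. FGF18 has 31 pairs in 250 bases, reached by 10.8%, and FGFR2 has 40 pairs in 236 bases, reached by 1.31%. FGFR4 has 16 pairs in 221 bases, reached by 35.2%, where the median promoter has 9. These counts describe the sequences. Binding of KDM2A was not measured, and the table matched 5 of the 10 genes, FGFR3 being the one not shown.

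Levels are given as CPM, read counts divided by the library total after TMM scaling, which assumes that most genes keep their level. Totals ran from 12.7 to 20.2 M counts in the NPC libraries, over listed genes alone, and from 15.9 to 18.9 M counts in the organoid libraries. A gene was called, and is said to have risen or fallen, where edgeR's quasi-likelihood test gave an adjusted p (Benjamini-Hochberg, over all genes of the table) under 0.05 and the log2 fold change was at least 1 in size. KDM2A itself was at 98.1, 89.2, 94.7, 89.1 and 89.1 CPM in sh1 NPCs and 92.6, 95.7, 102.0, 93.8 and 91.3 CPM in sh4 NPCs, against 198, 183, 202, 185 and 163 CPM in NC NPCs. The groups did not overlap, with log2 fold changes of -1.02 (SE 0.05, adjusted p 5.12e-12) for sh1 and -0.97 (SE 0.05, adjusted p 7.36e-12) for sh4. In the organoids KDM2A was at 111, 117 and 103 CPM in the libraries labelled sh1 and 105, 95.5 and 103 CPM in those labelled sh4, against 99.9, 105 and 96.8 CPM in NC. These groups overlapped (log2 0.14, adjusted p 0.127, and 0.01, adjusted p 0.926), so the organoid libraries are called by their labels throughout and every direction below is a difference between labels. The NPC table looks preselected for genes that differ with sh1: 99.3% of its tested genes had an adjusted p under 0.05 for sh1 and 88.0% for sh4, so an NPC p-value separates few genes from the rest.

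Scaling by total counts alone, in place of TMM, moved the median log2 fold change of all genes by over 0.1 in 4 contrasts, without turning the direction of a called FGF gene. In NPCs the median was then -0.03 with sh1 and -0.11 with sh4, and in organoids -0.28 with sh4 and 0.26 for sh1 over sh4. Genes called higher made up 34.3% of the calls of NPC sh1 under TMM and 23.7% under total counts. For organoid sh4 these shares were 56.4% and 43.3%, and for organoid sh1 over sh4 41.2% and 57.3%.

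The organoid labels also differed in markers of other cell types, and these values stand beside every organoid result below. Pluripotency markers (8 of 8 listed, among them POU5F1 and NANOG) summed to 71.5 to 77.8 CPM in sh1 and 71.5 to 97.6 CPM in sh4, against 674 to 965 CPM in NC. DNMT3L was at 0 in both labelled groups and PRDM14 in sh4. Mesenchyme markers (8 of 8 listed, among them COL1A2 and LUM) summed to 20570 to 23020 CPM in sh1 and 39570 to 48600 CPM in sh4, against 2966 to 4382 CPM in NC, with no marker at 0. Mesoderm and endoderm markers (10 of 10 listed) summed to 2510 to 7551 CPM in sh1 and 14990 to 54370 CPM in sh4, against 90.4 to 386 CPM in NC, and TBXT was at 0 in sh1 and sh4. AFP and APOA1 make up most of the sum in sh1 and sh4. By gene, AFP, APOA1 and GATA6 rose and EOMES, MESP1, TBX6 and TBXT fell with both labels, and the list's median log2 fold change was -0.78 with sh1 and -0.05 with sh4. Choroid plexus markers (6 of 6 listed) summed to 911 to 2027 CPM in sh1 and 4135 to 8998 CPM in sh4, against 121 to 255 CPM in NC. AQP1 was at 268 CPM in sh1 and 955.5 CPM in sh4, and CLIC6, FOLR1 and KCNJ13 had means of at most 22.8 CPM. TTR therefore makes up most of the sum in sh1 and sh4. By gene, these 5 rose with both labels, and the median log2 fold change was 2.17 with sh1 and 3.75 with sh4. OTX2 was at 57.3 CPM in sh1 and 37.5 CPM in sh4, against 56.4 CPM in NC. Neural progenitor markers (11 of 11 listed) summed to 2823 to 2919 CPM in sh1 and 1367 to 1794 CPM in sh4, against 3565 to 4106 CPM in NC. By gene, their median log2 fold change was -1.61 with sh1 and -3.17 with sh4. Of the 11, 7 fell with both labels, and 1 was called higher with sh4. Neuron markers (8 of 8 listed) summed to 1161 to 1604 CPM in sh1 and 219 to 846 CPM in sh4, against 2972 to 3232 CPM in NC. Their median was -0.99 with sh1, where 2 were called lower, and -2.60 with sh4, where 8 were. Astroglia and oligodendrocyte markers (8 of 8 listed) summed to 340.5 to 483 CPM in sh1 and 186 to 252 CPM in sh4, against 74.3 to 106 CPM in NC. MBP was at 18.7 CPM in sh1 and 36.55 CPM in sh4, and GFAP, AQP4, ALDH1L1 and OLIG2 were lower still. Other genes of the list therefore make up most of the sum in sh1 and sh4. Of the 7 tested in this list, PDGFRA and S100B rose with both labels, and with sh4 4 were called higher and 1 lower. The list's median was 1.02 with sh1 and 1.60 with sh4. OLIG2 went the other way, with 33 summed counts in sh1 and 14 in sh4, against 102 in NC. Over all tested organoid genes 12.1% were called higher and 7.92% lower with sh1, and 20% higher and 15.5% lower with sh4. With both labels 10.2% were called higher and 6.18% lower. The part of all these markers in the FGF results was not tested. In bulk RNA, fewer cells of a type and less RNA per cell cannot be told apart.

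Ligand genes fell more often than they rose in the organoid libraries. FGF2, FGF4, FGF17 and FGF19 fell with both labels, FGF8 fell with sh1, and FGF18 rose with both. Counting receptors, 5 of the 10 genes were lower and 1 was higher with sh1, where 7.92% of 19704 tested genes were lower and 12.1% higher. The same numbers, 5 lower and 1 higher, were found with sh4, where 15.5% of the tested genes were lower and 20% higher. With both labels, 4 of the 10 were lower and 1 was higher, where 6.18% of all tested genes were lower and 10.2% higher with both. The median log2 fold change of the 10 genes was -1.30 with sh1 and -0.73 with sh4, beside 0.02 and -0.01 over all tested genes. Both contrasts use the same NC libraries. FGF4 passed the filter on low counts only through NC, where it is high, and FGF8 only through NC and sh4 libraries. The genes were also chosen with earlier results known. These counts and medians are therefore a description and no support for a shared change.

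FGF2, a growth factor for stem cells and neural progenitors, had the highest mean level per exon length of the 6 ligands in each organoid group. It was at 17.9, 20.3 and 19.0 CPM in the libraries labelled sh1 and at 12.8, 14.6 and 16.4 CPM in those labelled sh4, against 64.5, 61.7 and 61.6 CPM in NC. Every sh1 and sh4 library lay far below every NC library, and all 3 sh1 libraries lay above all 3 sh4 libraries. The log2 fold change was -1.72 (SE 0.10, adjusted p 2.82e-06) with sh1 and -2.10 (SE 0.10, adjusted p 3.89e-07) with sh4. Its exons share 804 of 6775 bases with NUDT6 on the opposite strand, and the sources used here do not state whether counting used strand. NUDT6 was not called (log2 0.22 with sh1 and 0.54 with sh4).

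FGF19, the endocrine ligand, had 7, 6 and 7 counts in the libraries labelled sh1 and 11, 20 and 11 counts in those labelled sh4, against 180, 219 and 149 counts in NC. This corresponds to 0.366 ± 0.031 CPM in sh1 and 0.850 ± 0.284 CPM in sh4, against 10.1 ± 1.48 CPM in NC (SD, n = 3 each). No library of either label came near the NC range, and all sh1 libraries were below all sh4 libraries. The log2 fold change was -4.76 (SE 0.29, adjusted p 3.28e-06) with sh1 and -3.56 (SE 0.26, adjusted p 2.50e-06) with sh4.

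FGF4, a ligand of the pluripotent epiblast, was at 0 counts in all 3 libraries labelled sh1 and at 0, 1 and 0 counts in those labelled sh4, against 124, 56 and 77 counts in NC. Both labelled groups were at or next to 0, while every NC library held at least 56 counts. With a floor of 3 counts over the sh1 group, FGF4 was at least 86.9-fold lower with sh1 (adjusted p 0.000115). With sh4, 1 count against 257 gave a ratio of 0.00427 after scaling (95% counting interval 0.000108 to 0.0240, adjusted p 5.37e-05). Such intervals and floors cover counting error only. The pluripotency markers above fell beside it: 7 of the 7 tested were called lower with both labels, where 6.18% of all tested genes were.

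FGF17, a forebrain and isthmus patterning ligand, had 34, 35 and 29 counts in the libraries labelled sh1 and 23, 33 and 26 counts in those labelled sh4, against 109, 90 and 99 counts in NC. The labelled groups overlapped each other and lay wholly below NC. Its log2 fold change was -1.62 (SE 0.21, adjusted p 0.000237) with sh1 and -1.73 (SE 0.21, adjusted p 6.23e-05) with sh4.

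FGF8, the founding member of that subfamily and a signal of the anterior neural ridge, was scarce. It had 3, 1 and 0 counts in the libraries labelled sh1 and 7, 13 and 6 counts in those labelled sh4, against 9, 16 and 12 counts in NC. The sh1 libraries were below all others, while sh4 and NC overlapped. FGF8 fell with sh1 (log2 -3.11, SE 0.73, adjusted p 0.00530) and was not called with sh4 (log2 -0.37, 95% interval -1.57 to 0.83). It passed the filter on low counts only through NC and sh4 libraries, where it is higher than in sh1. With a stricter filter, or with only the groups compared, FGF8 was not tested and 5 genes were called with sh1.

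FGF18, known for its part in bone and lung growth, moved the other way. It had 69, 70 and 60 counts in the libraries labelled sh1 and 45, 40 and 69 counts in those labelled sh4, against 26, 28 and 29 counts in NC. All labelled libraries exceeded all NC libraries. The log2 fold change was 1.24 (SE 0.25, adjusted p 0.00322) with sh1 and 1.02 (SE 0.26, adjusted p 0.00534) with sh4. The sh4 value lay next to the threshold, and it was 0.75 when libraries were scaled by total counts alone and 0.77 without sh4 replicate 3, 0.97 without NC replicate 1 and 0.99 without NC replicate 2.

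**Figure D1:**
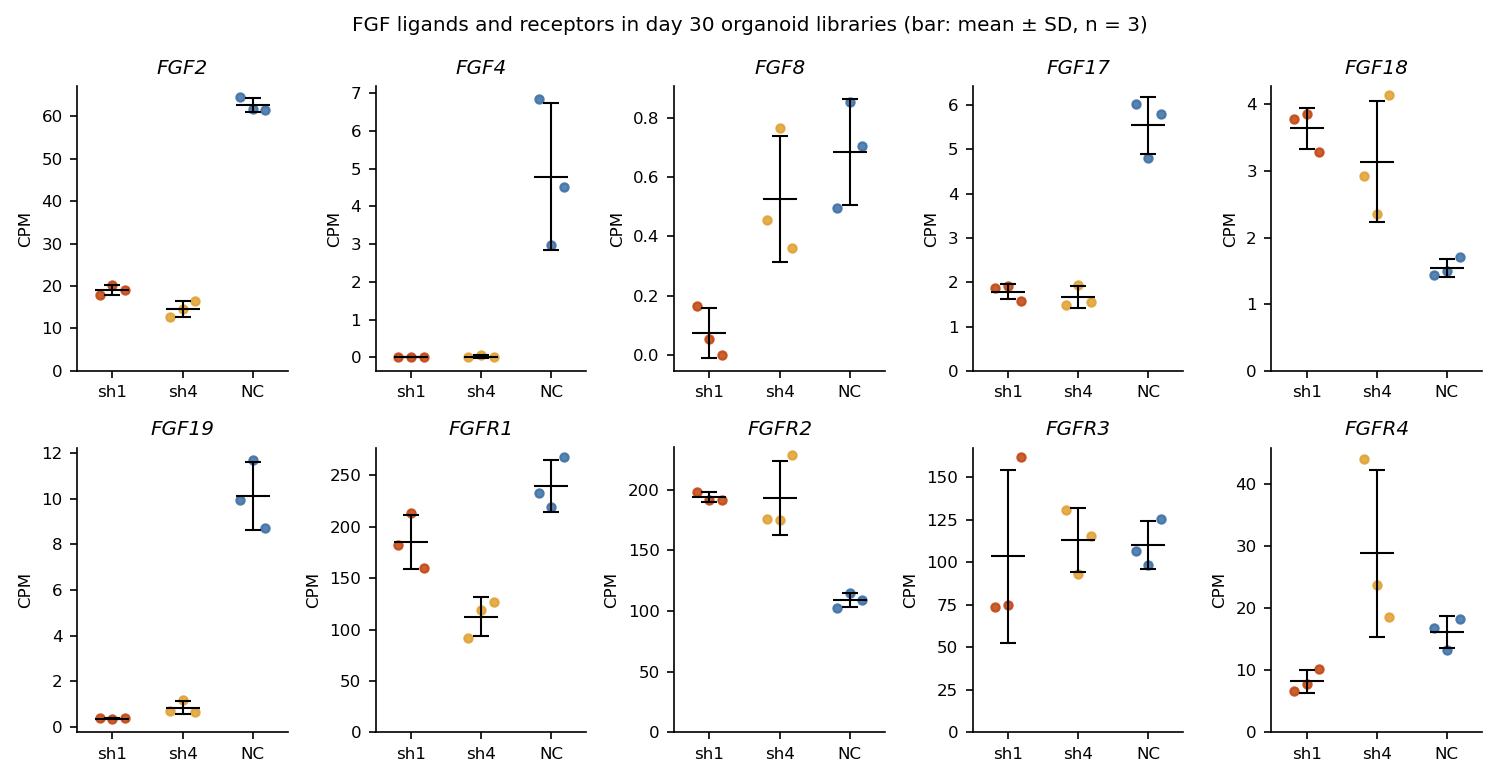
Levels of the 10 genes in day 30 organoids, in CPM on a linear axis, with 1 point per library and the mean ± SD of each group (n = 3 for sh1, sh4 and NC). FGF2, FGF4, FGF17 and FGF19 sit below NC in both labelled groups, FGF18 above it, and FGFR4 lies below NC in sh1 and above it in sh4.

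Among the receptor genes of the organoids, 1 call was made against NC. FGFR1, the receptor most widely used in the forebrain, was at 183, 213 and 160 CPM in the libraries labelled sh1 and at 91.8, 119 and 127 CPM in those labelled sh4, against 233, 219 and 268 CPM in NC. The 3 groups did not overlap, with sh4 lowest and NC highest. FGFR1 fell with sh4 (log2 -1.09, SE 0.14, adjusted p 9.11e-05) and was not called with sh1 (log2 -0.37, SE 0.14, adjusted p 0.0513). Without sh4 replicate 1 the sh4 value was -0.96, under the fold threshold. Of its 13842 exon bases, 138 are shared with LETM2 and 156 with AC087623.1, both on the opposite strand.

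FGFR2, a receptor of neural progenitors and of many epithelia, was at 198.5, 191 and 192 CPM in the libraries labelled sh1 and at 176, 175 and 229 CPM in those labelled sh4, against 103, 115 and 109 CPM in NC. All labelled libraries were above NC, yet the log2 fold change of 0.83 with either label (SE 0.10 each, adjusted p 0.000171 for sh1 and 6.13e-05 for sh4) stayed under the fold threshold. FGFR3, which is prominent in radial glia, was at 73.7, 74.7 and 162 CPM in sh1 and 131, 93.2 and 115 CPM in sh4, against 107, 98.4 and 126 CPM in NC. The groups overlapped, sh1 replicate 3 being the highest library of all 9. Neither label differed from NC beyond the spread (log2 -0.09, 95% interval -0.72 to 0.53, with sh1 and 0.04, interval -0.59 to 0.66, with sh4).

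FGFR4, the receptor of FGF19 in liver, split the labels. It was at 6.69, 7.75 and 10.2 CPM in the libraries labelled sh1 and at 44.0, 23.8 and 18.6 CPM in those labelled sh4, against 16.7, 13.3 and 18.3 CPM in NC. All sh1 libraries were below NC and all sh4 libraries above it, the lowest sh4 library only just. Neither contrast was called (log2 -0.97, SE 0.31, adjusted p 0.0259, with sh1 and 0.84, SE 0.29, adjusted p 0.0284, with sh4). Values on either side of the fold threshold were reached by leaving out single libraries: -1.17 for sh1 without sh1 replicate 3, -1.09 without NC replicate 2, and 1.07 for sh4 without sh4 replicate 3.

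Set directly against each other, the libraries labelled sh1 and sh4 differed in 3 of the 10 genes, where 19% of all tested genes were called. FGFR4 was lower in sh1 than in sh4 (log2 -1.81, SE 0.31, adjusted p 0.00122), as were FGF8 (log2 -2.74, SE 0.76, adjusted p 0.0115) and FGF19 (log2 -1.21, SE 0.33, adjusted p 0.0122). FGF8 passed the filter on low counts only through NC and sh4 libraries, so its call is a description. The FGF19 call was lost without sh4 replicate 2, at -0.89 with an adjusted p of 0.0802, and at -0.98 with scaling by total counts alone. FGFR2 gave the smallest difference, 0.00 with a 95% interval of -0.22 to 0.23.

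In the NPCs, 3 of the 8 listed genes rose with both hairpins and none fell: FGF4, FGF19 and FGFR4. FGF8 was too low to be tested, so 7 genes were. Genes called higher made up 6.31% of 9860 tested NPC genes with sh1 and 6.55% with sh4, and genes called lower made up 12.1% with sh1 and 11.6% with sh4. With both hairpins, 4.62% of the tested genes were called higher and 8.48% lower. The median log2 fold change of the 7 genes was 0.23 with sh1 and 0.50 with sh4, beside 0.11 and 0.03 over all tested genes. FGF4 and FGF19 passed the filter on low counts through the knockdown groups where they are high, so these counts are a description and no support for a shared change.

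FGF19 had 30, 34, 34, 35 and 36 counts in sh1 NPCs and 21, 35, 27, 29 and 29 counts in sh4 NPCs, against 1, 1, 2, 1 and 2 counts in NC NPCs. NC was next to 0 in every library, and no knockdown library came near it. In CPM this was 1.88 ± 0.08 in sh1 and 1.49 ± 0.24 in sh4, against 0.082 ± 0.042 in NC (SD, n = 5 each). The log2 fold change was 4.47 (SE 0.27, adjusted p 2.24e-11) with sh1 and 4.14 (SE 0.29, adjusted p 9.15e-11) with sh4. The summed counts of 169 in sh1 against 7 in NC gave a ratio of 24.03 after scaling, with a 95% counting interval of 11.4 to 60.7. The 141 counts in sh4 gave a ratio of 19.1, with an interval of 9.05 to 48.5.

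FGF4 was also low. It had 10, 19, 8, 17 and 13 counts in sh1 NPCs and 19, 22, 25, 33 and 37 counts in sh4 NPCs, against 0, 6, 0, 3 and 5 counts in NC NPCs. Every knockdown library exceeded every NC library, and in CPM all sh4 libraries were above all sh1 libraries, the nearest pair only just. The log2 fold change was 2.21 (SE 0.49, adjusted p 0.000290) with sh1 and 3.16 (SE 0.43, adjusted p 1.14e-06) with sh4. Pluripotency markers, 8 of 8 listed and none at 0, summed to 1652 to 1763 CPM in sh1 and 1504 to 1600 CPM in sh4, against 998 to 1080 CPM in NC. Of these, NANOG, PRDM14, TDGF1 and ZFP42 rose with both hairpins and POU5F1 fell (log2 -1.83 with sh1 and -1.39 with sh4). Their part in the FGF4 result was not tested.

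FGFR4 was at 29.3, 21.9, 28.3, 27.8 and 24.3 CPM in sh1 NPCs and 26.8, 24.1, 28.1, 25.7 and 20.7 CPM in sh4 NPCs, against 10.5, 9.99, 9.90, 8.62 and 8.50 CPM in NC NPCs. The knockdown groups overlapped each other and lay well above NC. The log2 fold change was 1.47 (SE 0.10, adjusted p 1.40e-10) with sh1 and 1.40 (SE 0.10, adjusted p 2.25e-10) with sh4. Of the 3 genes that rose, FGFR4 was the best covered, with 136 to 544 counts in every NPC library.

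The remaining NPC genes stayed under the fold threshold. FGF2 was at 177, 208, 197, 186 and 179 CPM in sh1 and 158, 164, 157, 154 and 160.1 CPM in sh4, against 174, 160, 169, 151 and 153 CPM in NC. The sh1 libraries were just above NC and the sh4 libraries were spread among them (log2 0.23, adjusted p 0.000293, with sh1 and -0.02, adjusted p 0.649, with sh4). FGF8 had 0, 1, 1, 0 and 3 counts in sh1 and 2, 3, 2, 6 and 0 counts in sh4, against 4, 9, 3, 1 and 5 counts in NC, and the groups overlapped.

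FGFR1 in the NPCs was at 478, 466, 477, 513 and 568 CPM in sh1 and 577, 607, 624, 600.5 and 612 CPM in sh4, against 403, 430.4, 404, 418 and 476 CPM in NC. All sh4 libraries lay above the others and sh1 overlapped NC slightly (log2 0.23 with sh1 and 0.50 with sh4, SE 0.06 each). FGFR2 went the other way, at 129.5, 122, 131, 118 and 106 CPM in sh1 and 97.7, 81.3, 95.1, 91.1 and 78.8 CPM in sh4, against 164, 138.5, 154, 150.3 and 129 CPM in NC. Its sh4 libraries were the lowest and sh1 just overlapped NC (log2 -0.28 with sh1 and -0.73 with sh4, SE 0.07 each). FGFR3 was at 316, 331.5, 332, 367 and 383.5 CPM in sh1 and 438, 434, 472, 450 and 482 CPM in sh4, against 548, 509, 508, 513 and 509 CPM in NC. These 3 groups did not overlap, with sh1 lowest and NC highest (log2 -0.58 with sh1 and -0.19 with sh4, SE 0.05 each).

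Between the hairpins no FGF gene of the NPCs was called, where 4.6% of all tested genes were. With edgeR 6 of the 7 had an unadjusted p under 0.05 but a difference under the fold threshold, and DESeq2 called 0 as well. FGF4 came closest, at a log2 difference of sh1 over sh4 of -0.95 (SE 0.31, adjusted p 0.0244). It crossed the threshold when single libraries were left out, at -1.10 without sh1 replicate 2, -1.02 without sh1 replicate 4, -1.04 without sh4 replicate 1 and -1.03 without sh4 replicate 2. FGFR4 differed least, at 0.07 with a 95% interval of -0.13 to 0.26.

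**Figure D2:**
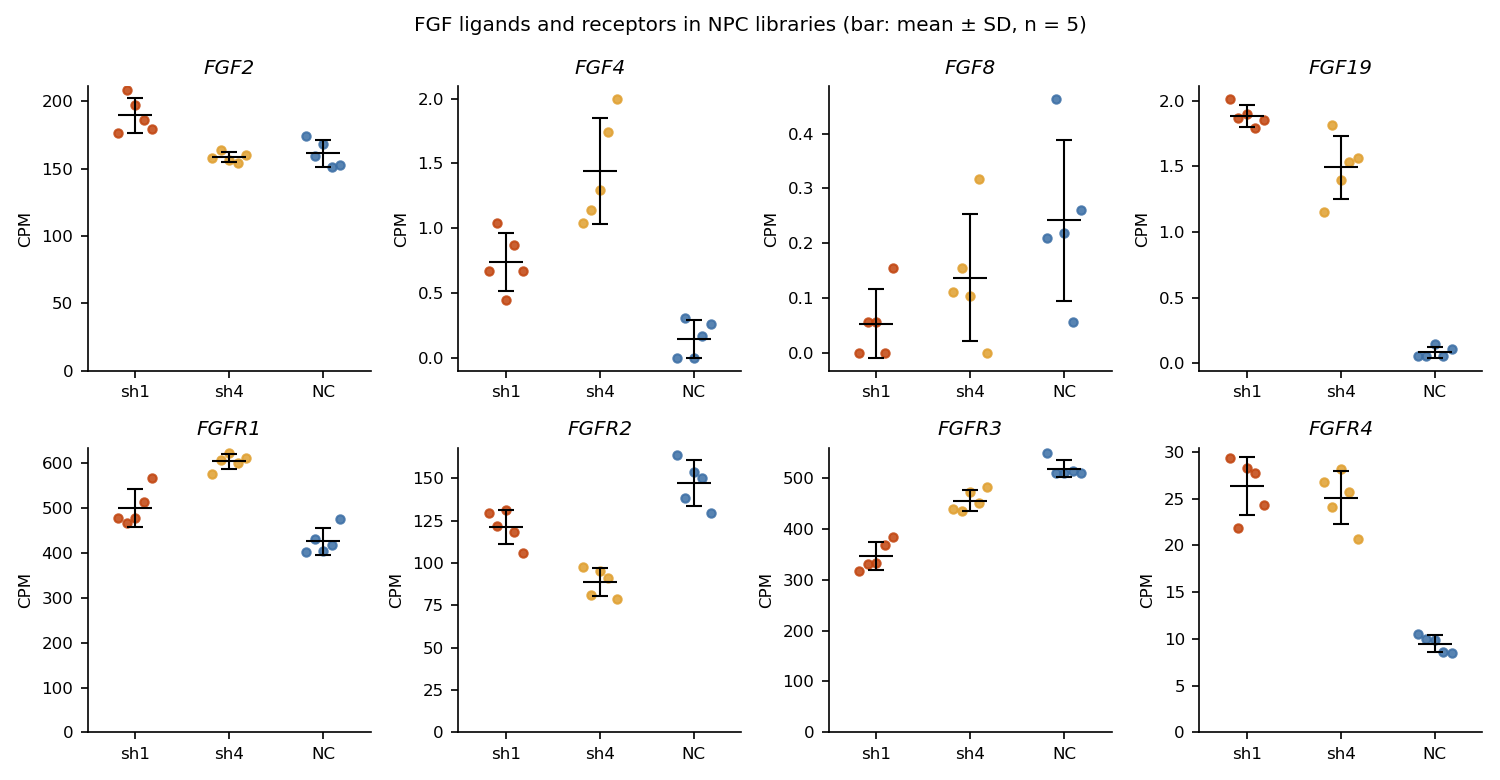
Levels of the 8 listed genes in NPCs, in CPM on a linear axis, with 1 point per library and the mean ± SD of each group (n = 5 for sh1, sh4 and NC). FGF4, FGF19 and FGFR4 stand above NC with both hairpins, while FGFR3 is below NC in every knockdown library.

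The change with knockdown was compared between systems in 1 fit of 10034 genes listed in both tables, taking the average sh1 and sh4 effect over NC for NPCs and subtracting the organoid one. Of the 8 FGF genes in it 6 were called, where 34.4% of the genes in the fit were. All of these genes are listed for the NPCs, where the listing looks preselected for differences with sh1. FGF4 and FGF19 passed the filter on low counts through groups where they are high, among them the knockdown NPCs and NC organoids. The count of calls is therefore a description and no support for a shared change. FGF19 differed by 8.47 log2 units (SE 0.31, adjusted p 3.61e-17), being higher than NC in the NPCs and lower than NC in the organoids. FGF2 differed by 2.02 (SE 0.08, adjusted p 5.46e-16), being near NC in the NPCs and lower in the organoids. FGFR4 differed by 1.52 (SE 0.24, adjusted p 3.19e-06) and FGFR1 by 1.11 (SE 0.11, adjusted p 4.52e-09). FGFR2 differed in the other direction, by -1.32 (SE 0.11, adjusted p 2.27e-10), being lower than NC in the NPCs and higher in the organoids.

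FGF4 also differed between the systems (adjusted p 2.07e-11), and its fitted size of 11.37 log2 units rests on groups at or next to 0. FGF8 (0.37, 95% interval -1.40 to 2.14) and FGFR3 (-0.34, interval -0.76 to 0.07) were not called. Since KDM2A was lower in the knockdown NPCs and not in the labelled organoids, this test compares the labels in each system, and a difference in knockdown and a difference in tissue cannot be told apart.

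**Figure D3:**
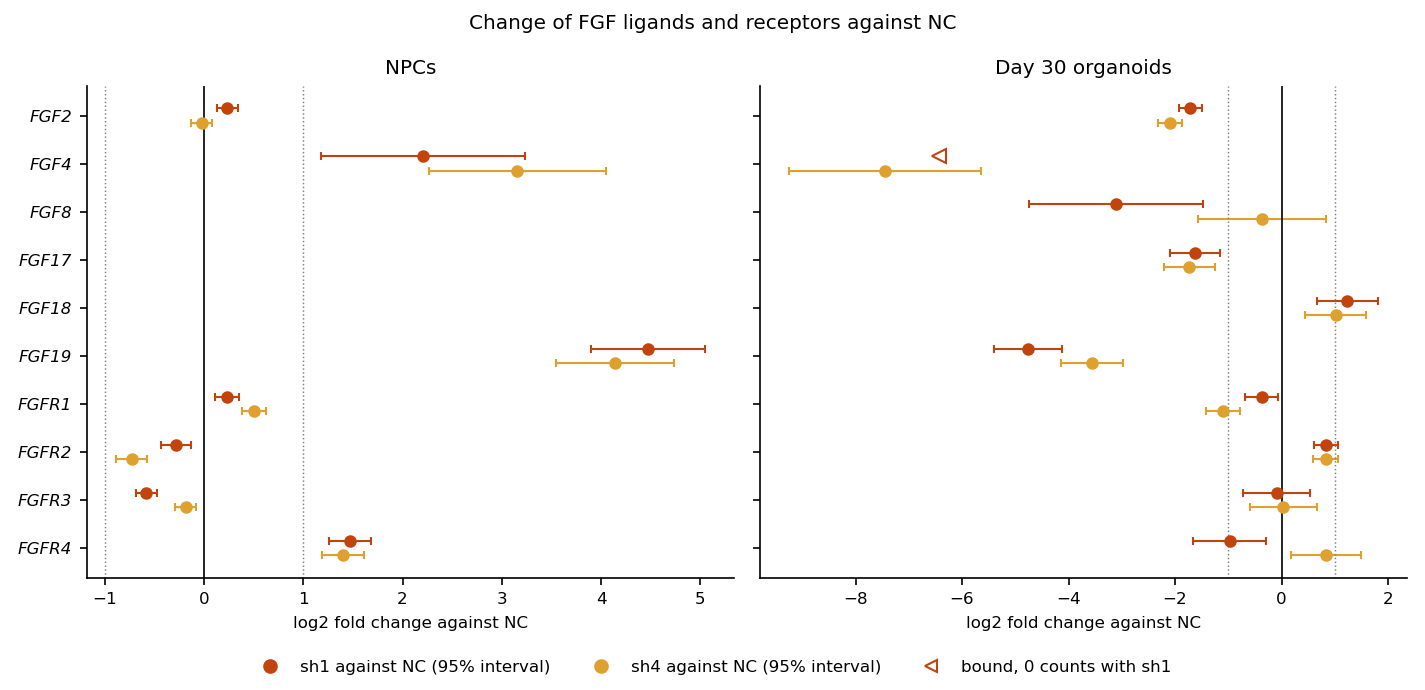
Log2 fold change against NC of each gene with sh1 and with sh4, NPCs on the left and organoids on the right, with 95% intervals from edgeR and dotted lines at the fold threshold. FGF4 and FGF19 lie right of 0 in the NPCs and left of 0 in the organoids, and the open triangle gives the bound for FGF4 with sh1, at least 6.44 log2 units lower.

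To compare levels between genes, CPM were divided by the length of each gene's merged exons (GENCODE v29, GRCh38). In NPCs FGFR3 led in every group, at 71.4 ± 5.82 CPM per kb in sh1 and 93.9 ± 4.37 in sh4, against 107 ± 3.50 in NC (SD, n = 5 each), followed by FGFR1, FGF2, FGFR2 and FGFR4 in all 3 groups. No neighbours among these 5 overlapped in any group. The order depends on the lengths, 13842 bases for FGFR1 and 4848 for FGFR3. In CPM without division by length, mean FGFR1 was above FGFR3 in sh1 NPCs (500 against 346) and sh4 NPCs (604 against 455). In NC NPCs it was below FGFR3 (426 against 517). The last places were held by FGF19, FGF4 and FGF8 in the knockdown groups, and in the reverse order in NC, where FGF8, FGF4 and FGF19 overlapped in turn. In organoids FGFR2 led in the libraries labelled sh1, at 25.6 ± 0.54 CPM per kb, and in those labelled sh4, at 25.5 ± 4.03, with FGFR3 next and overlapping it. In NC organoids FGFR3 led at 22.7 ± 2.89 CPM per kb (SD, n = 3 each), and FGFR1 and FGFR2 followed in that order with no overlap. In CPM without division by length, FGFR1 had the highest mean of these receptors in NC organoids (240, against 110 for FGFR3 and 109 for FGFR2).

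Each receptor's share of the summed per-length receptor level was also computed. In NPCs FGFR3 took 55.3 ± 1.59% in sh1 and 60.8 ± 1.16% in sh4, against 67.2 ± 0.62% in NC. FGFR1 took 28.0 ± 0.88% in sh1 and 28.3 ± 0.67% in sh4, against 19.4 ± 1.56% in NC, and FGFR4 took 4.24 ± 0.58% in sh1 and 3.37 ± 0.39% in sh4, against 1.24 ± 0.11% in NC. For these 3 receptors the NC range was separate from both knockdown ranges. In the organoids FGFR2 took 34.9 to 46.8% in sh1 and 35.3 to 45.0% in sh4, against 22.7 to 28.0% in NC, and FGFR1 took 22.1 ± 5.52% in sh1 and 13.1 ± 2.73% in sh4, against 30.0 ± 0.61% in NC. Shares of 1 total cannot move independently, and they are given with no test. They also depend on the merged exon lengths, as the order above does. Splice forms of the receptors were not separated.

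**Figure D4:**
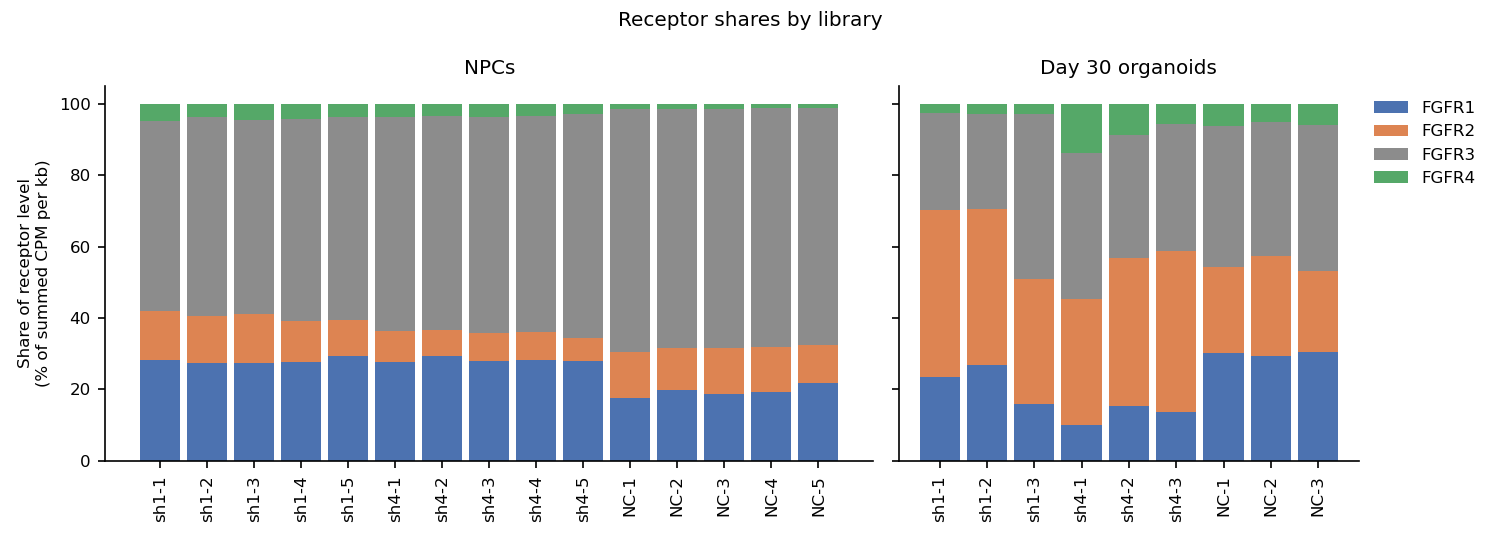
Share of each receptor in the summed receptor level (CPM per kb of merged exons) for every library, as stacked bars that reach 100%. FGFR3 fills 53.0 to 68.1% of each NPC bar, and FGFR2 fills 34.9 to 46.8% in the organoid libraries labelled sh1 and sh4, against 22.7 to 28.0% in NC.

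FGF19 and FGF4 are neighbours. On chromosome 11 of GRCh38 (GENCODE v29), FGF19 lies at 69698232 to 69704642, FGF4 at 69771016 to 69775403 and FGF3 at 69809969 to 69819024, all on the minus strand, with 66.4 kb between FGF19 and FGF4 and 34.6 kb between FGF4 and FGF3. FGF3, a ligand needed for inner ear formation, was too low to be tested in either system. It summed to 26 counts in sh1 and 6 in sh4, against 7 in NC, over the 5 NPC libraries of each group. In the organoids it summed to 0 counts in sh1 and 3 in sh4, against 33 in NC. The genes that flank these ligands were chosen after their values were seen. CCND1, cyclin D1, rose in NPCs with sh1 (log2 1.41, SE 0.04) and stayed under the threshold with sh4 (log2 0.68, SE 0.04), and in organoids it was not called (log2 0.12 and -0.19). ANO1, a chloride channel, rose in organoids (log2 1.14 with sh1 and 1.64 with sh4), where FGF4 and FGF19 fell, and LTO1 was not called (log2 -0.24 and -0.33).

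FGF response and feedback genes were followed as a list of 15. In NPCs 7 of the 12 tested rose with both hairpins (DUSP6, SPRY1, SPRY2, SPRY4, ETV1, ETV4 and ETV5) and MYC, a growth regulator, fell with both, where 4.62% of all tested genes were called higher and 8.48% lower with both. The list's median log2 fold change was 1.30 with sh1 and 1.52 with sh4, beside 0.11 and 0.03 over all tested genes. DUSP6, a phosphatase that switches ERK off, was at 101 ± 4.19 CPM in sh1 and 108 ± 13.6 CPM in sh4, against 23.9 ± 0.58 CPM in NC (SD, n = 5 each), a log2 fold change of 2.08 (SE 0.07) with sh1 and 2.18 (SE 0.07) with sh4. ETV1, an ETS transcription factor, rose by 1.99 (SE 0.09) and 2.18 (SE 0.09), and SPRY2, a Sprouty inhibitor, by 1.53 (SE 0.07) with each hairpin. All adjusted p-values of these 3 genes were at most 8.37e-13.

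In the organoids the same list gave 4 genes that fell with both labels (ETV4, SHISA2, SPRED3 and SPRY4) and 1 that rose (SHISA3), of 15 tested, where 6.18% of all tested genes were called lower and 10.2% higher with both. The list's median was -0.39 with sh1 and -0.71 with sh4. ETV4 was at 4.13 ± 1.09 CPM in sh1 and 9.23 ± 3.46 CPM in sh4, against 25.9 ± 4.64 CPM in NC (SD, n = 3 each), a log2 fold change of -2.65 (SE 0.30, adjusted p 0.000102) with sh1 and -1.49 (SE 0.28, adjusted p 0.000942) with sh4. SPRY4 was at 9.86 ± 2.21 CPM in sh1 and 8.79 ± 2.17 CPM in sh4, against 22.4 ± 2.57 CPM in NC, and fell by 1.19 (SE 0.21) and 1.35 (SE 0.21) on the log2 scale. SHISA2, which holds FGF receptors back inside the cell, fell by 1.39 (SE 0.12) and 2.43 (SE 0.13). DUSP6 rose with sh1 (log2 1.03, SE 0.20) and was not called with sh4 (log2 0.17, SE 0.20). The difference between systems was called for ETV4 (4.53, SE 0.25), SPRY4 (3.54, SE 0.23), ETV1 (3.42, SE 0.20) and DUSP6 (1.55, SE 0.16). In this test 34.4% of all 10034 genes were called, and the values of the other genes of the list are not given for it. The genes named do not stand for the list, since MYC moved the other way. MYC was at 550 CPM in sh1 NPCs and 661 CPM in sh4 NPCs, against 3506 CPM in NC NPCs. In the organoids it was at 18.9 CPM in sh1 and 25.8 CPM in sh4, against 10.7 CPM in NC.

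**Figure D5:**
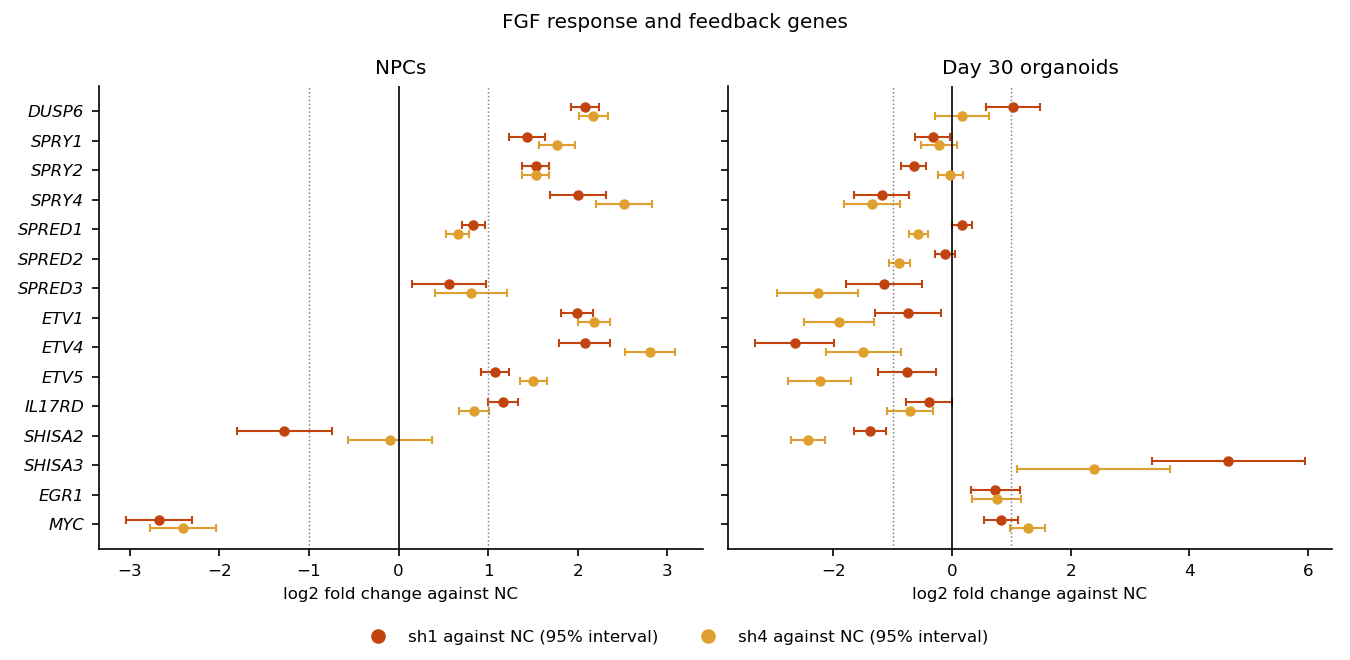
Log2 fold change against NC of the 15 FGF response and feedback genes with sh1 and sh4, NPCs on the left and organoids on the right, with 95% intervals from edgeR and dotted lines at the fold threshold (EGR1, SHISA3 and SPRED2 have no NPC point). DUSP6, SPRY and ETV genes lie right of the threshold in NPCs, while ETV4, SPRY4, SPRED3 and SHISA2 lie left of it in organoids.

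Of the 16 other FGF ligand genes, 9 were tested in the organoids, where 2 rose and 2 fell with both labels, beside 10.2% higher and 6.18% lower of all tested genes. FGF7, a mesenchymal ligand for epithelia, had 73 to 108 counts in sh1 and 146 to 162 counts in sh4, against 23 to 26 counts in NC, and rose by 1.81 (SE 0.21) with sh1 and 2.80 (SE 0.21) with sh4. FGF10, of the same subfamily, also rose (log2 1.38 and 1.24). FGF9, a neuronal and mesenchymal growth factor, fell (log2 -1.31, SE 0.21, with sh1 and -1.69, SE 0.22, with sh4), and so did FGF14, an intracellular partner of sodium channels (log2 -2.70, SE 0.25, and -3.89, SE 0.28). In the NPCs 2 of the 16 were tested, FGF12 and FGF13, and neither was called with both hairpins.

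Co-receptor, binding protein and adaptor genes numbered 19, of which 17 were tested in the organoids. FLRT2, FLRT3, KL and KLB rose with both labels and FGFBP3, a secreted carrier of FGFs, fell (log2 -2.63, SE 0.37, and -4.77, SE 0.42). That is 4 higher and 1 lower of 17, beside 10.2% and 6.18% of all tested genes. FLRT2 and FLRT3, membrane proteins that bind FGF receptors, rose by 2.09 and 1.74 with sh1 and by 1.79 and 1.81 with sh4. KLB, the beta-Klotho co-receptor through which FGF19 acts on FGFR4, was at 6.91 ± 4.22 CPM in sh1 and 24.7 ± 19.3 CPM in sh4, against 1.16 ± 0.60 CPM in NC (SD, n = 3 each), a log2 fold change of 2.56 (SE 0.73, adjusted p 0.0169) and 4.39 (SE 0.73, adjusted p 0.000443). In NPCs 11 of the 19 were tested, ANOS1 rose (log2 1.03, SE 0.07, and 1.17, SE 0.07) and FLRT1 fell (log2 -1.67, SE 0.20, and -1.34, SE 0.19) with both hairpins, beside 4.62% higher and 8.48% lower of all tested genes. ANOS1 is a matrix protein that binds FGFR1.

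Heparan sulfate genes, which make or carry the sugar chains that FGFs need, numbered 24, all tested in the organoids. SDC2, SULF1, SULF2 and GPC3 rose and HS6ST3 fell with both labels. That is 4 higher and 1 lower of 24, against 10.2% and 6.18% over all tested genes. SULF1, an extracellular sulfatase that trims these chains, rose by 4.15 (SE 0.23) with sh1 and 3.46 (SE 0.23) with sh4, SULF2 by 1.74 (SE 0.14) and 1.24 (SE 0.14), and SDC2, a syndecan, by 1.86 (SE 0.10) and 2.04 (SE 0.10). In the NPCs 18 were tested, of which 1 was called higher and 1 lower with sh1, and 2 higher and 1 lower with sh4, none of them shared in direction. Over all tested NPC genes these shares were 6.31% and 12.1% with sh1, and 6.55% and 11.6% with sh4.

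Patterning genes that FGF8 and its relatives govern were followed in 2 lists. Of the 15 telencephalon genes, all tested in organoids, 9 fell with both labels and NR2F2 rose, where 6.18% of all tested genes were called lower and 10.2% higher with both. DLX5 and DLX2, of ventral forebrain, fell by 5.11 (SE 0.26) and 3.13 (SE 0.17) with sh1 and by 3.53 (SE 0.23) and 4.97 (SE 0.20) with sh4. In the NPCs, of the 8 tested telencephalon genes, 3 were called higher and 0 lower with sh1 (list median 0.53), and 0 higher and 4 lower with sh4 (list median -0.99). Over all tested NPC genes 6.31% were called higher and 12.1% lower with sh1, and 6.55% higher and 11.6% lower with sh4. Of the isthmus and hindbrain genes, GBX2, which marks the hindbrain side of the isthmus, rose in NPCs (log2 1.21, SE 0.21, and 2.08, SE 0.19) and fell in organoids (log2 -2.55, SE 0.36, and -4.99, SE 0.48). PAX5 rose in NPCs (log2 2.08, SE 0.40, and 1.51, SE 0.43). SP5, a WNT and FGF target, fell in organoids (log2 -2.32, SE 0.41, and -1.61, SE 0.39). In the NPCs 2 of 5 tested rose with both hairpins, beside 4.62% of all tested genes, and 1 was called lower with sh4, beside 11.6%. In the organoids 2 of 11 fell with both labels, beside 6.18%, and 0 rose, beside 10.2%. With sh1 alone 3 of these were called higher and 3 lower (list median 0.53), beside 12.1% and 7.92% of all tested genes. With sh4 alone 0 were called higher and 2 lower (list median -0.26), beside 20% and 15.5%.

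The genes whose pattern was closest to an FGF gene were found by the root mean square difference of log2 CPM, centred on NC, over all libraries of a system. These log2 CPM carry a prior count of 2, which shrinks the changes of genes with few counts. On this scale FGF19 in NPCs was 3.41 above NC with sh1 and 3.08 with sh4, while the edgeR fold changes were 4.47 and 4.14. The genes named are closest to it on that scale only. For FGF19 in the 15 NPC libraries they were NPR1 (0.24 log2 units), WNT8B (0.39), MT2A (0.40), HORMAD1 (0.41) and APLN (0.43), among 8983 genes with a median distance of 2.57. For FGF2 in the 9 organoid libraries they were DLG2 (0.08), SEMA6A (0.16), PTAR1 (0.17), FAM72B (0.17) and NRARP (0.18), among 14754 genes with a median of 1.60.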

How the data were processed

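Poly(A)-selected RNA was sequenced from 15 NPC and 9 organoid libraries. The authors deposited 1 table per system of expected counts, unscaled, with 82.4% whole numbers for the NPCs and 91.0% for the organoids. The build GRCh38.p13 and the tools featureCounts and STAR are named per the submitters' processing notes; versions, counting settings and the origin of fractional counts are not given in the sources used here. Of the 61544 organoid identifiers, 42047 had a symbol, and NPC rows carry symbols. Counts were rounded, filtered with filterByExpr (minimum count 10), scaled by TMM and tested with edgeR 4.0.16 in R 4.3.3 (quasi-likelihood test, 3 groups of a system in 1 fit, Benjamini-Hochberg over all genes). This kept 9860 NPC and 19704 organoid genes. The difference between systems was fitted over all 24 libraries. Alternatives were DESeq2 1.42.0, other scalings and filters, unrounded counts, fits of only the groups compared, a replicate block and leaving out each library. The fit was tested on simulated data. Depth was 12.7 to 20.2 M counts in the NPCs and 15.9 to 18.9 M in the organoids, and genes with a few counts per library are known only within wide intervals. Replicates all differed by more than sampling noise (lowest chi-square over its degrees of freedom 2.65).

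All 10 genes are named with values in every library. From each pathway list (other FGF ligands, co-receptors with binding proteins and adaptors, heparan sulfate, response and feedback, isthmus and hindbrain, telencephalon) up to 3 genes per system, called the same way with both hairpins and with the smallest adjusted p, are given in full; 1 gene that this rule picked is not reported here, and list counts include it. The genes closest to an FGF gene are those nearest to the one with the smallest adjusted p in each system, among tested genes with a mean log2 CPM of at least 1. Marker lists were neural progenitor, neuron, pluripotent, mesenchyme, mesoderm and endoderm, choroid plexus, and astroglia and oligodendrocyte. The 10 genes and the lists were chosen with earlier results of these data known.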

Additional observations from a re-analysis of the deposited data

Results flagged for a closer look

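In 1 of 24 gene and group combinations of the NPCs, a library stood apart from its group: FGFR3 was at 548 CPM in NC replicate 1, while the other NC libraries were at 508 to 513 CPM. Chance alone flags about 1 in 20 groups.

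The change with the knockdown labels differed between NPCs and organoids by a direct test for 6 of 8 FGF genes, where 34.4% of the genes in that fit were called. The NPC change minus the organoid change was 8.47 log2 units for FGF19, 2.02 for FGF2, 1.11 for FGFR1, 1.52 for FGFR4 and -1.32 for FGFR2. For FGF4 the fitted value was 11.37, which rests on groups at or next to 0 counts. KDM2A also differed in this test (log2 -1.05, SE 0.08, adjusted p 1.96e-11 with edgeR), since it was lower in the knockdown NPCs and not in the labelled organoids.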

How the results depend on the processing

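No FGF gene with a call changed direction under the alternatives run. Counts of FGF genes called against NC lay between 2 and 4 in NPCs and between 5 and 7 in organoids, and 6 genes differed between the systems under each alternative run. Leaving out 1 library at a time gave 3 calls each time for NPC sh1 and for NPC sh4, 6 to 7 for organoid sh1, 5 to 6 for organoid sh4, 2 to 3 for organoid sh1 against sh4, and 0 to 1 for NPC sh1 against sh4, the 1 being FGF4. Without a filter on low counts FGF8 was a further NPC gene called with sh1. A stricter filter (minimum count 30) and fits of only the groups compared tested fewer low genes. The replicate numbers did not pair the libraries throughout. Correlations of same-numbered libraries ran from -0.1 to 0.393 in NPCs and from -0.156 to 0.035 in organoids. Differently numbered libraries of other groups ran from -0.48 to 0.381 and from -0.176 to 0.195. NPC replicates 1 (0.181 to 0.327) and 5 (0.229 to 0.393) were positive in every pair. By this measure 6 of 15 NPC and 1 of 9 organoid libraries were closest to their own number. With a replicate block the counts of calls were 3 for each NPC hairpin and 6 for each organoid label, as without it. Depth limits FGF3, FGF4, FGF8 and FGF19, which have few counts in at least 1 group.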

Other observations

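In the NPCs, neural progenitor markers (9 of 11 listed) summed to 2171 to 2449 CPM in sh1 and 3103 to 3591 CPM in sh4, against 2363 to 2559 CPM in NC. NES makes up most of that sum, at 1768 CPM in sh1 and 2694 CPM in sh4, against 2149 CPM in NC. Of the 8 tested, FABP7, PROM1, PTPRZ1, SLC1A3 and SOX1 rose with both hairpins, and 1 was called lower with sh4. PAX6 was at 28.5 CPM in sh1 and 3.17 CPM in sh4, against 17.0 CPM in NC. HES5 summed to 10 counts in sh1 and 12 in sh4, against 56 in NC. Neuron markers (5 of 8 listed) summed to 2160 to 2458 CPM in sh1 and 2533 to 2668 CPM in sh4, against 2071 to 2642 CPM in NC. MAP2 makes up most of that sum, and by gene the list's median log2 fold change was -0.80 with sh1, where 2 of 5 were called lower, and -0.01 with sh4, where 0 were called. Mesenchyme markers (7 of 8 listed) summed to 4857 to 5909 CPM in sh1 and 5728 to 6563 CPM in sh4, against 6394 to 7116 CPM in NC. COL3A1 makes up most of this sum, at 4230 CPM in sh1 and 4508 CPM in sh4, against 6157 CPM in NC. By gene the list went the other way: its median was 0.83 with sh1 and 1.64 with sh4, 2 of the 7 were called higher with sh1 and 6 with sh4, and LUM and THY1 rose with both hairpins. Choroid plexus markers (5 of 6 listed) summed to 103 to 108 CPM in sh1 and 74.3 to 83.6 CPM in sh4, against 111 to 120 CPM in NC. OTX2 makes up most of this sum, at 90.8 CPM in sh1 and 45.8 CPM in sh4, against 109 CPM in NC. Over the 4 tested genes the median was 0.82 with sh1 and 1.56 with sh4, CLIC6 rose with both hairpins, and with sh4 2 were called higher and 1 lower. Astroglia and oligodendrocyte markers (4 of 8 listed) summed to 4.47 to 7.33 CPM in sh1 and 7.40 to 13.4 CPM in sh4, against 29.5 to 44.2 CPM in NC, and GFAP, MBP and S100B fell with both hairpins. Mesoderm and endoderm markers (2 of 10 listed) summed to at most 2.30 CPM in any library. Over all tested NPC genes 6.31% were called higher and 12.1% lower with sh1, and 6.55% higher and 11.6% lower with sh4. With both hairpins 4.62% were called higher and 8.48% lower.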
